A study of Mus musculus with 16 samples.

Results

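The genes described here are 10 imprinted genes, H19, Igf2, Dlk1, Meg3, Rian, Mirg, Peg3, Peg10, Cdkn1c and Grb10, which were taken by symbol from a table of 23224 gene rows. All 10 were found. They were measured by RNA sequencing in 16 mouse small cell lung cancers, a neuroendocrine lung tumor. Every tumor lacked Trp53 and Rb1, whose deletion started tumor formation, and every mouse was of mixed C57BL/6;129/Sv strain. A CRISPR mutation of p107, encoded by Rbl1, distinguished 8 of the tumors, and a CRISPR mutation of p130, encoded by Rbl2, the remaining 8. No group without either mutation was analysed here. Each tumor is named by its title, in which the number after the guide RNA was read as the mouse, so the p107 tumors came from 4 mice and the p130 tumors from 3. Tumors of a mouse share a host, while the tests over tumors treat them as independent.

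An imprinted gene is expressed mainly from the copy inherited from one parent, and neighbouring imprinted genes often share a control region that carries a methylation mark from the egg or the sperm. In the mouse, Igf2, Dlk1, Peg3 and Peg10 are expressed from the paternal copy, and H19, Meg3, Rian, Mirg, Cdkn1c and, in most tissues, Grb10 from the maternal copy. Paternally expressed genes such as Igf2 tend to promote growth of the embryo, and maternally expressed genes such as Cdkn1c and Grb10 tend to restrain it. H19 and Igf2 lie side by side on distal chromosome 7 and Cdkn1c in the adjoining domain, while Dlk1, Meg3, Rian and Mirg form a cluster on chromosome 12. Peg3 lies on proximal chromosome 7, Peg10 on chromosome 6 and Grb10 on chromosome 11. The total RNA level of a gene, as measured here, does not tell the parental copies apart.

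Libraries held between 12700334 and 34620979 estimated counts. Levels are CPM, counts scaled to the library total with TMM factors. No source used here gives the strand setting, so reads of Igf2 and Igf2as, or of Peg3 and Peg3as, cannot be told apart where the genes overlap. Neuroendocrine markers were present in all tumors, with chromogranin A, Chga, at 268 to 1750 CPM and synaptophysin, Syp, at 129 to 504 CPM. Rbl2 ranged from 55.3 to 127 CPM in p107 tumors and from 15.6 to 54.3 CPM in p130 tumors, without overlap. Rbl1 ranged from 64.2 to 246 CPM in p107 tumors and from 60.5 to 120 CPM in p130 tumors, so its RNA level does not mark the p107 mutation. Tumor sgp107_6627T1 stood apart: it held the highest level of the 16 tumors in 15.3% and the lowest in 17.1% of the 14857 genes tested. Results that rest on it are given with and without it.

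The sequences at the start sites of Meg3, Dlk1 and Rian are shown because these RNAs of the chromosome 12 cluster were highest in the same tumor and high enough there to compare. Each window runs from 250 bases before to 50 bases after the annotated start in RefSeq on GRCm38.p6, while the counts were made on mm9. Capitals mark motifs found by a search on both strands. The TATA box was searched as the letters TATAAA. The cAMP response element was searched as TGACGTCA. The hexamer bound by ZFP57, a protein that keeps imprints, was searched as TGCCGC. The cell cycle element CHR was searched as TTTGAA. The E2F motif was searched in 3 spellings, of which one was TTTGGCGC, another was TTTCGCGC, and the last was TTTCCCGC.
Meg3, chr12:109540746-109541045, plus strand: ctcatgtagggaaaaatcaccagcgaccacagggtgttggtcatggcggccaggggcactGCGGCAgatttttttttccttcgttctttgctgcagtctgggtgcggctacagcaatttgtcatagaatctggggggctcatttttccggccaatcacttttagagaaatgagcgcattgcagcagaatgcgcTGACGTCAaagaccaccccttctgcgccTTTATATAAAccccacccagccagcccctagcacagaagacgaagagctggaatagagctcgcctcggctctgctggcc
Dlk1, chr12:109452573-109452872, plus strand: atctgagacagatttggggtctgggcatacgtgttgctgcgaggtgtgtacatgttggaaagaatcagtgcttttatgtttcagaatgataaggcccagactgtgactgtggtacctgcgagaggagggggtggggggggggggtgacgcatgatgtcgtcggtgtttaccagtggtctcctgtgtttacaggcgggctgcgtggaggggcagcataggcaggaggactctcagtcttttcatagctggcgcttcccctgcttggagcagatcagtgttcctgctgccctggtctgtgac
Rian, chr12:109603695-109603994, plus strand: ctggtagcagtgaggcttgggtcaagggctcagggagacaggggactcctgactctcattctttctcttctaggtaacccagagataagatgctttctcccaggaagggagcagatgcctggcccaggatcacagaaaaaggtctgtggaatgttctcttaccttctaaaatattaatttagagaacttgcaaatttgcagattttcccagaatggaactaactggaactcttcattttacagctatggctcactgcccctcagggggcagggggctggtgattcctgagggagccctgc
The Meg3 window shown, the first of 2, held a cAMP response element 57 bases, a TATA box 25 bases and a ZFP57 hexamer, read on the other strand, 190 bases before the start. The TATA box was also found on the other strand, overlapping the first, and the cAMP response element reads the same on both strands. The Dlk1 and Rian windows held none of the motifs searched. The second Meg3 window, chr12:109545148-109545447, and the window of Mirg are not shown. The former held a CHR, read on the other strand, 81 bases before its start, and the latter none of the motifs. Of 32851 mouse promoter windows of this length, 13.6% held the TATA box, 1.79% the cAMP response element, 11.6% the ZFP57 hexamer, 1.84% the E2F motif and 17.9% the CHR. A match is a description of the letters and no evidence of binding. The table held 12 windows for 7 of the 10 genes, and H19, Peg10 and Cdkn1c were not among them.

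Igf2, which encodes insulin-like growth factor 2, was the most abundant of the 10 genes per length. Its median over the 16 tumors was 167 CPM per kilobase of the longest GENCODE M21 transcript. Peg3 followed at 23.9, Cdkn1c at 18.7, Peg10 at 8.39 and Grb10 at 3.7 CPM per kilobase. H19 came next at 0.761, then Dlk1 at 0.183, Rian at 0.179, Meg3 at 0.0309 and Mirg at 0.0123 CPM per kilobase. These medians thus put 5 genes above 1 CPM per kilobase and 5 under it, and the 4 genes of the chromosome 12 cluster were the 4 lowest. In the highest tumor, Rian reached 16.4, Dlk1 10.1 and Meg3 9.5 CPM per kilobase, all above the median of Peg10.

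**Figure D1:**
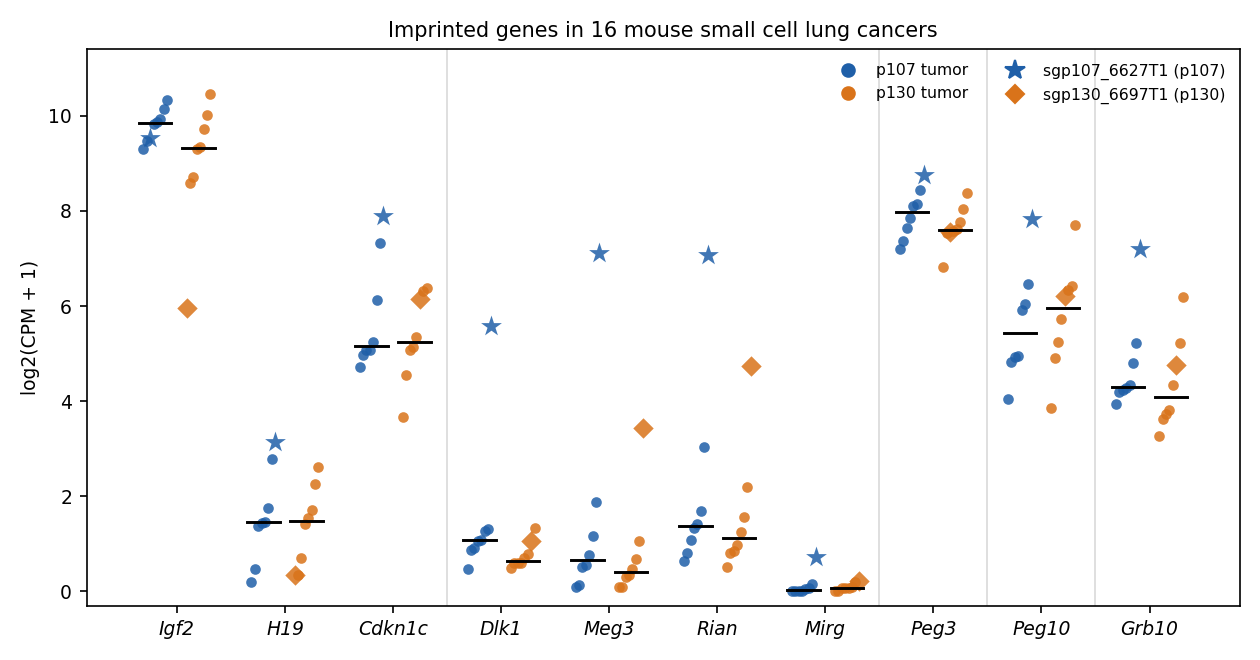
Level of each gene, log2(CPM + 1), in each tumor, with p107 tumors in blue, p130 tumors in orange and a black bar at each group's median (n = 8 each); grey lines separate chromosomal regions. The star, sgp107_6627T1, is the highest point for every gene but Igf2, and the diamond, sgp130_6697T1, is the lowest point for Igf2 and the second highest for Meg3, Rian and Mirg.

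Igf2 in p107 tumors ranged from 628 to 1280 CPM with a median of 920 CPM, and in p130 tumors from 60.9 to 1400 CPM with a median of 642 CPM. The groups overlapped, and the lowest value belonged to sgp130_6697T1, while the next lowest tumor of the 16 held 382 CPM. The log2 fold change, p107 minus p130, was 0.43 ± 0.39 (SE) with an adjusted p of 0.696 by edgeR's quasi-likelihood test. An exact two-sided permutation test of mean log2(CPM + 1) gave p = 0.11 over 12870 splits of the tumors and p = 0.0571 over 35 splits of the mice. The mouse of that tumor also bore sgp130_6697T2, at 1040 CPM, a 17.1-fold difference between tumors of one host. In the other mice, the highest tumor held between 1.04 and 3.36 times the lowest.

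Igf2as, the RNA from the opposite strand of Igf2, followed it closely. It stood at 2.33 CPM in sgp130_6697T1, against 29.7 to 63.4 CPM in the other 15 tumors. The correlation of the 2 RNAs over 16 tumors was r = 0.94 (adjusted permutation p = 0.00102 over 17 pairs of a gene and a neighbour or receptor) and rho = 0.85 (adjusted p = 0.00119). Without the 2 tumors farthest from the median of Igf2, r was 0.685 (permutation p = 0.00723). Reads from the span that both genes share cannot be assigned to a strand here, and the part of such reads in this likeness was not tested. Ins2, the insulin gene beside Igf2, had a level of 0 in every tumor. Th, tyrosine hydroxylase, was at 2.17 CPM in sgp130_6697T1 and ranged from 1.43 to 59.3 CPM over all 16 tumors. It correlated with Igf2 at r = 0.607 (adjusted permutation p = 0.0356; rho = 0.356, adjusted p = 0.273), or r = 0.536 without the 2 tumors farthest from the median of Igf2. Of the receptors, Igf2r, which takes up and degrades the ligand, passed by rank (rho = 0.709, adjusted permutation p = 0.027) but not by r (r = 0.462, adjusted p = 0.132), and Igf1r, which passes the growth signal on, by neither (r = 0.259, adjusted p = 0.296; rho = 0.144, adjusted p = 0.719). Without the same 2 tumors r was 0.651 for Igf2r and 0.561 for Igf1r.

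H19, a long noncoding RNA, is expressed from the maternal copy while Igf2 is expressed from the paternal one, and in embryonic tissues both depend on the same enhancers. It was low throughout: 0.143 to 7.8 CPM in p107 tumors with a median of 1.74 CPM, and 0.278 to 5.13 CPM in p130 tumors with a median of 1.8 CPM. The groups overlapped, and the highest values were those of sgp107_6627T1 and sgp107_6627T2, which share a mouse, at 7.8 and 5.89 CPM. Its log2 fold change was 0.44 ± 0.70 (SE; edgeR adjusted p = 0.839) and -0.01 ± 0.69 without sgp107_6627T1. No relation of H19 and Igf2 across tumors passed the test by either measure, with r = 0.231 (adjusted permutation p = 0.451 over 45 pairs) and rho = -0.0294 (adjusted p = 0.966). Without the 2 tumors farthest from the median of Igf2, r was -0.415. The log2 ratio of Igf2 to H19, computed from CPM + 1, ran from 5.6 in sgp130_6697T1 to 9.75 in sgp130_6637T3, so Igf2 exceeded H19 in every tumor. It was 8.22 ± 1.23 (SD, n = 8) in p107 and 7.64 ± 1.22 (SD, n = 8) in p130 tumors, with p = 0.356 by the exact permutation test.

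Cdkn1c encodes p57, an inhibitor of cyclin-dependent kinases, and lies in the domain next to Igf2 and H19. Its level ran from 25.4 to 238 CPM in p107 tumors with a median of 34.8 CPM, and from 11.7 to 82.7 CPM in p130 tumors with a median of 36.9 CPM. Tumors sgp107_6627T1 and sgp107_6627T2, at 238 and 160 CPM, were the highest of all, and the other 14 lay within the p130 range. The log2 fold change was 0.75 ± 0.52 (SE; edgeR adjusted p = 0.595), 0.25 ± 0.46 without sgp107_6627T1 and -0.30 without both of these tumors. Cdkn1c rose with H19 by Pearson's measure (r = 0.672, adjusted permutation p = 0.0158) but missed the threshold by rank (rho = 0.597, adjusted p = 0.0853). Without the 2 tumors farthest from the median of H19, r was 0.371, so passing by r depends on those tumors. With any single tumor left out, r of Cdkn1c with H19 was at least 0.547. With Igf2 the values were r = -0.19 (adjusted permutation p = 0.493) and rho = -0.415 (adjusted p = 0.282), and r was -0.52 without the 2 tumors farthest from the median of Igf2. Kcnq1ot1, the noncoding RNA whose transcription silences Cdkn1c on the paternal copy, varied between 145 and 356 CPM and showed r = 0.119 with Cdkn1c (adjusted permutation p = 0.748) and rho = 0.279 (adjusted p = 0.412), or r = 0.365 without the 2 tumors farthest from the median of Cdkn1c. The other neighbours tested passed by r and missed the threshold by rank. Kcnq1, a potassium channel gene, was lower where Cdkn1c was higher, with r = -0.78 (adjusted permutation p = 0.00569; rho = -0.585, adjusted p = 0.0654), and was at its lowest, 1.8 CPM, in sgp107_6627T1. Nap1l4, which encodes a nucleosome assembly protein, rose with Cdkn1c at r = 0.711 (adjusted permutation p = 0.0149; rho = 0.553, adjusted p = 0.0705). Without the 2 tumors farthest from the median of Cdkn1c, r was -0.485 for Kcnq1 and 0.452 for Nap1l4, so passing by r depends on those tumors.

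Dlk1, Meg3, Rian and Mirg share one imprinted cluster. Dlk1 is a transmembrane relative of the Notch ligands and is expressed in neuroendocrine and progenitor cells; the other 3 are noncoding RNAs of the maternal copy, with small nucleolar RNAs within Rian and microRNAs within Mirg. All 4 were low in most tumors and stood out in 1 or 2 of them. Dlk1 was at 47.0 CPM in sgp107_6627T1 and between 0.377 and 1.53 CPM in the other 15 tumors. Meg3 was at 138 CPM in sgp107_6627T1, at 9.76 CPM in sgp130_6697T1 and at 0.067 to 2.69 CPM in the other 14. Rian was at 133 CPM in sgp107_6627T1, at 25.9 CPM in sgp130_6697T1 and at 0.422 to 7.25 CPM in the other 14. The tumor with the third highest level of both Meg3 and Rian was sgp107_6627T2, from the same mouse as the highest.

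Mirg had 11 counts in sgp107_6627T1, or 0.64 CPM, and 3 counts in sgp130_6697T1, or 0.167 CPM. In the other tumors it had 2, 1 or 0 counts, and the 6 tumors with 0 counts allow a level of up to 0.12 to 0.215 CPM (3 counts of the library, counting error only). These counts are too few for a comparison of Mirg between groups. Of 15 microRNA genes that lie within H19, Meg3, Rian and Mirg, 14 had a row in the table and 12 of those were at 0 in all tumors, with 3.31 estimated counts in all over the 16 libraries. The libraries were made with an mRNA kit, so these rows do not measure the mature microRNAs.

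One mature microRNA per host RNA is shown to make plain which small RNAs these transcripts carry, with the seed (bases 2 to 8) in capitals, from RefSeq on GRCm38.p6.
miR-675-5p (in H19): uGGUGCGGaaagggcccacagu
miR-770-3p (in Meg3): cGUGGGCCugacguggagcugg
miR-370-3p (in Rian): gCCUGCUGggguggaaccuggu
miR-410-3p (in Mirg): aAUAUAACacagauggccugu
The 4 seeds differ from each other.

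Meg3 and Rian rose and fell together over the whole range. Their correlation was r = 0.983 and rho = 0.959 over 16 tumors, each with an adjusted permutation p of 0.00045, the smallest that 100000 resamples and 45 pairs can give. It was 0.968 without the 2 tumors farthest from the median of Meg3, 0.989 without sgp107_6627T1, and 0.964 between deviations from the mouse means (adjusted permutation p = 0.0521). Over the means of the 7 mice r was 0.996 (exact permutation p = 0.000397, adjusted p = 0.0179). Rian was the gene most like Meg3 among 11261 genes with a mean of at least 5 CPM. It reached that mean only through its highest tumors. Its median was 1.45 CPM, and its mean 2.16 CPM in p107 tumors without sgp107_6627T1 and 4.47 CPM in p130 tumors. The rank is therefore no separate support for the correlation. The log2 ratio of Meg3 to Rian, from CPM + 1, stayed between -1.32 in sgp130_6697T1 and 0.05 in sgp107_6627T1, with a standard deviation of 0.33 over the 16 tumors.

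Dlk1, which is expressed from the paternal copy, followed Meg3 and Rian less closely. Over 16 tumors it had r = 0.915 with Meg3 (adjusted permutation p = 0.00793; rho = 0.741, adjusted p = 0.0177) and r = 0.847 with Rian (adjusted p = 0.00793; rho = 0.685, adjusted p = 0.0379). Without the 2 tumors farthest from the median of Dlk1, r was 0.541 and 0.519, so Pearson's value rests on those tumors. The difference shows in sgp130_6697T1, where Meg3 and Rian were the second highest of all and Dlk1 stood at 1.09 CPM, within the range of the other tumors. There the log2 ratio of Dlk1 to Rian was -3.69, the lowest of all, against -1.48 in sgp107_6627T1. The correlations of Mirg with Dlk1, Meg3 and Rian were 0.895, 0.918 and 0.872, but their rank correlations were 0.267, 0.385 and 0.359, and they rest on the 11 counts of sgp107_6627T1. Rtl1, which lies between Meg3 and Rian and is expressed from the paternal copy, stayed at 0.132 to 0.801 CPM with a median of 0.351 CPM. Its highest level was also in sgp130_6697T1, and neither its r with Meg3 (0.0844, adjusted permutation p = 0.783; rho = -0.0235, adjusted p = 0.96) nor that with Dlk1 (-0.142, adjusted p = 0.675; rho = -0.0147, adjusted p = 0.96) passed the test. Without the 2 tumors farthest from the median of Meg3 or Dlk1, these r were 0.0797 and 0.228. Dio3, at the far end of the cluster, was at 0 to 0.208 CPM.

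**Figure D2:**
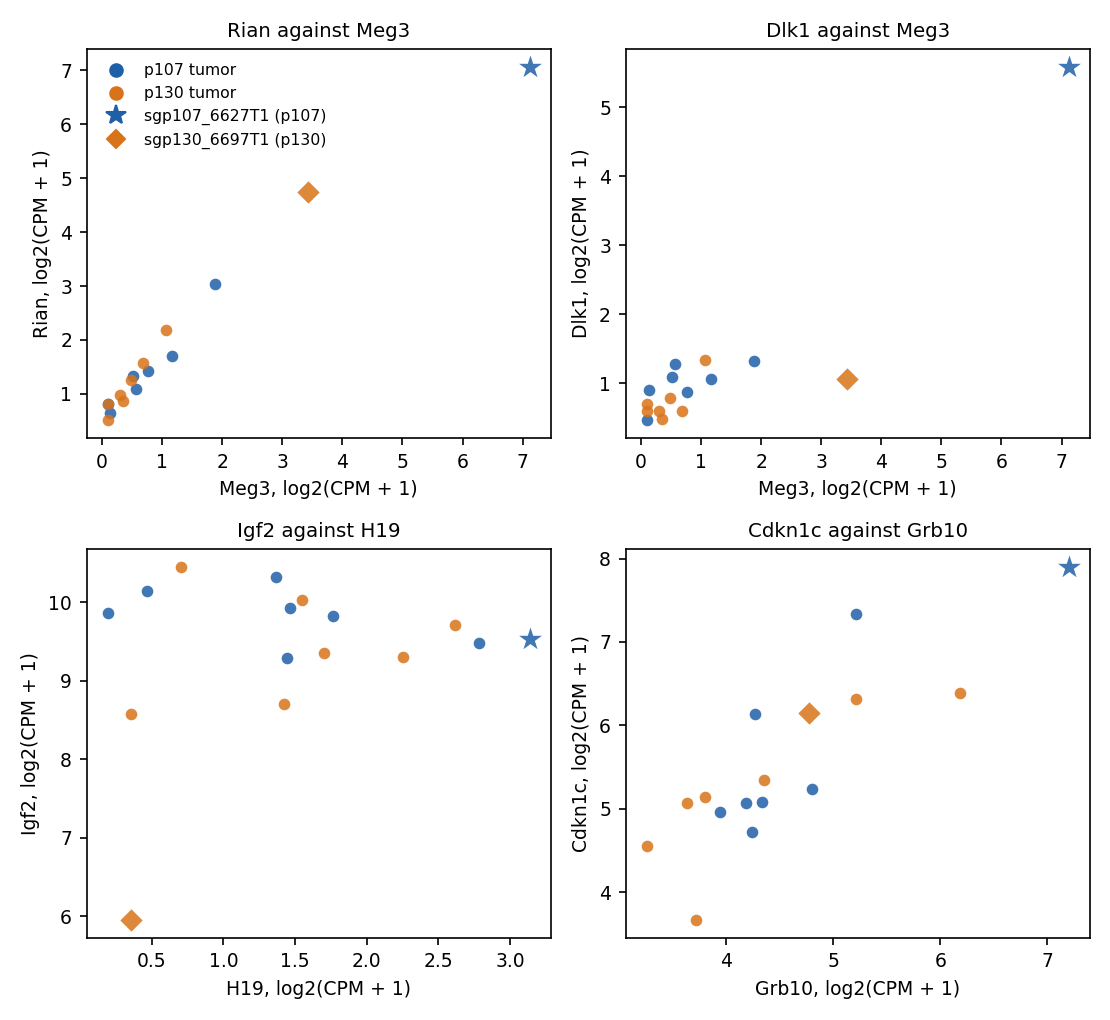
Level of one gene against another in each of 16 tumors, both axes log2(CPM + 1), with p107 tumors in blue and p130 tumors in orange. Rian rises with Meg3 along a single line (r = 0.983), Dlk1 departs from Meg3 in the diamond tumor sgp130_6697T1, Igf2 is spread with little trend against H19 (r = 0.231), and Cdkn1c rises with Grb10 (r = 0.847).

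Between p107 and p130 tumors, no member of the cluster passed the test. Dlk1 had a log2 fold change of 3.18 ± 0.98 (SE), with an unadjusted p of 0.00478 and an adjusted p of 0.246 by edgeR, and 0.46 ± 0.36 (adjusted p = 0.601) without sgp107_6627T1. DESeq2, run with its default replacement of outlying counts, gave 0.43 ± 0.39 for it (adjusted p = 0.697). Whether it replaced the count of sgp107_6627T1 was not examined, so this value is not a separate check on all 16 tumors. The exact permutation test, which weighs that tumor on the log2(CPM + 1) scale, gave p = 0.0752 over tumors and p = 0.371 over mice. Rian moved from 2.05 ± 1.23 (SE; edgeR adjusted p = 0.535) to -1.06 ± 0.86 (adjusted p = 0.622) once sgp107_6627T1 was left out, and the highest remaining tumor, sgp130_6697T1, is a p130 tumor. Meg3 and Mirg did not pass the filter on low counts, and without the filter had log2 fold changes of 3.51 ± 1.54 (SE; edgeR adjusted p = 0.382) and 0.59 ± 0.95 (SE; edgeR adjusted p = 0.834).

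Peg3 is a zinc finger protein expressed from the paternal copy in brain and other tissues. Over all 16 tumors it varied least of the 8 members that passed the filter on low counts. It ran from 147 to 432 CPM in p107 tumors with a median of 253 CPM and from 112 to 332 CPM in p130 tumors with a median of 193 CPM, and the groups overlapped. The standard deviation of its log2(CPM + 1) was 0.495, against a median of 0.392 over the 14857 genes tested, which placed it at percentile 65.4. The other 7 members tested lay between percentile 90.0 (H19) and 99.2 (Rian). Without sgp107_6627T1 the standard deviation was 0.44 for Peg3 and 0.303 for Dlk1, which then varied least at 1.53 CPM or less. The remaining members tested lay between 0.748 (Grb10) and 1.1 (Rian). The log2 fold change of Peg3 was 0.31 ± 0.23 (SE; edgeR adjusted p = 0.622). Usp29, a deubiquitinase that shares the start region of Peg3 on the opposite strand, ran from 11.2 to 75.5 CPM and correlated with it at r = 0.615 (adjusted permutation p = 0.0329; rho = 0.488, adjusted p = 0.11), or r = 0.522 without the 2 tumors farthest from the median of Peg3. Zim1, an imprinted zinc finger gene nearby, was at 2.96 CPM in sgp107_6627T1 and at 0.242 CPM or less in the other 15 tumors. Its r with Peg3 was 0.552 (adjusted permutation p = 0.0418, and 0.0824 by rank) and 0.254 without the 2 tumors farthest from the median of Peg3. Peg3as correlated with Peg3 at r = 0.847, on which the missing strand setting bears as for Igf2as.

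Peg10, a gene derived from a retrotransposon and needed for the mouse placenta, ran from 15.4 to 225 CPM in p107 tumors with a median of 45 CPM and from 13.4 to 207 CPM in p130 tumors with a median of 62.5 CPM. A single tumor stood out in each group, sgp107_6627T1 at 225 CPM and sgp130_6637T2 at 207 CPM, and the next highest held 87.0 CPM. Its log2 fold change was -0.10 ± 0.55 (SE; edgeR adjusted p = 0.965) and -0.68 ± 0.48 (adjusted p = 0.566) without sgp107_6627T1. Sgce, which starts beside Peg10 and is read from the same parental copy in the opposite direction, varied between 33.6 and 74.9 CPM, with r = 0.424 to Peg10 (adjusted permutation p = 0.143) and rho = 0.268 (adjusted p = 0.412), or r = 0.2 without the 2 tumors farthest from the median of Peg10. Asb4, farther along the same region, stood at 27.3 CPM in sgp107_6627T1 and at 2.22 CPM or less in the other 15 tumors. The other 3 neighbours passed by r and missed the threshold by rank: Casd1 (r = 0.641, adjusted permutation p = 0.0246; rho = 0.379, adjusted p = 0.251), Asb4 (r = 0.571, adjusted p = 0.0356; rho = 0.609, adjusted p = 0.0654) and Ppp1r9a (r = 0.557, adjusted p = 0.0418; rho = 0.571, adjusted p = 0.0659). Without the 2 tumors farthest from the median of Peg10 these r were 0.191, 0.241 and 0.359, so passing by r depends on those tumors.

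Grb10 encodes an adaptor protein that binds insulin and insulin-like growth factor receptors and dampens their signal. It ran from 14.4 to 146 CPM in p107 tumors with a median of 18.7 CPM and from 8.57 to 71.9 CPM in p130 tumors with a median of 16.2 CPM. The highest were sgp107_6627T1 at 146 CPM and sgp130_6638T4 at 71.9 CPM, with the next at 36.2 CPM. The log2 fold change was 0.57 ± 0.55 (SE; edgeR adjusted p = 0.718) and -0.22 ± 0.40 (adjusted p = 0.853) without sgp107_6627T1. Its neighbour Ddc, dopa decarboxylase, was at 521 to 1810 CPM with r = -0.0761 to Grb10 (adjusted permutation p = 0.783; rho = -0.112, adjusted p = 0.774; r = -0.167 without the 2 tumors farthest from the median of Grb10). Cobl, on the other side, was lower where Grb10 was higher, with r = -0.659 (adjusted permutation p = 0.0246; rho = -0.591, adjusted p = 0.0654) and r = -0.715 without the 2 tumors farthest from the median of Grb10. Without sgp107_6627T1 alone, where Cobl was at its lowest, 28.9 CPM, r was -0.47.

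**Figure D3:**
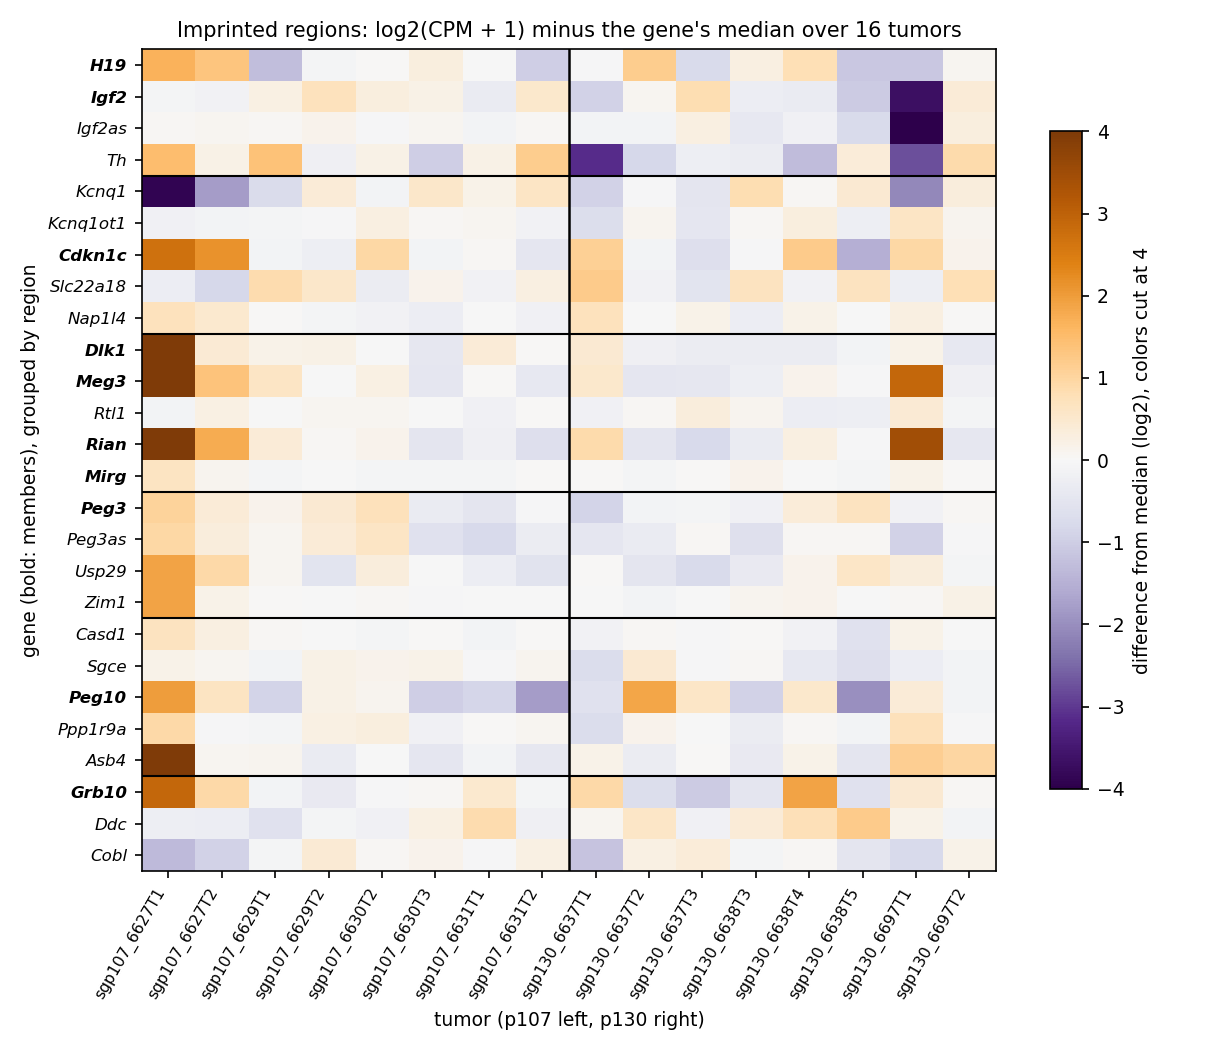
Level of each gene in each tumor as log2(CPM + 1) minus that gene's median over the 16 tumors, with members in bold and horizontal lines between chromosomal regions; orange is above and purple under the median, and colors are cut at 4. The columns of sgp107_6627T1 and sgp130_6697T1 show Meg3 and Rian high. Rtl1, between them, is under 1 CPM in every tumor, where this scale compresses differences, and was at its highest in sgp130_6697T1. Igf2 and Igf2as are low together in sgp130_6697T1.

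The comparison of the 2 genotypes gave 0 members called of the 8 tested. At this threshold, an adjusted p under 0.05, edgeR called 0.0269% of all genes tested, and at that rate a count of 0 among 8 does not stand apart from the background. At an unadjusted p under 0.05, 1 of the 8 (Dlk1) passed, against 11.8% of all genes, and DESeq2 also called 0 of 8 after adjustment. The log2 fold change was positive for 7 of the 8 with a median of 0.5, against a median near 0 over all genes. Without sgp107_6627T1 it was positive for Igf2, Dlk1, Peg3 and Cdkn1c and negative for H19, Rian, Peg10 and Grb10. The p107 and p130 tumors overlapped for each of the 10 genes, and over all genes tested 0.141% did not overlap.

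Genotype and the sex pattern of the RNA went largely together. All 8 p107 tumors, from 4 mice, held Y-linked transcripts, with Eif2s3y at 64.1 CPM or more and Xist at 2.89 CPM or less. Of the 8 p130 tumors 2 did, both from the mouse that bore sgp130_6697T1, and the other 6 had Xist at 140.0 CPM or more. Xist, the RNA that silences an X chromosome in females, was lower in p107 tumors, at -9.33 ± 1.29 (SE) on the log2 scale with an adjusted p of 0.0202 by edgeR. Sex and genotype can therefore be told apart only through these 2 p130 tumors of a single mouse. Among the 10 tumors with Y-linked transcripts edgeR called 0 members, with log2 fold changes of 3.17 ± 2.23 (SE) for Dlk1, 1.28 ± 1.28 for H19, 0.73 ± 0.71 for Igf2, 0.47 ± 2.16 for Rian and 0.11 ± 0.84 for Peg10.

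**Figure D4:**
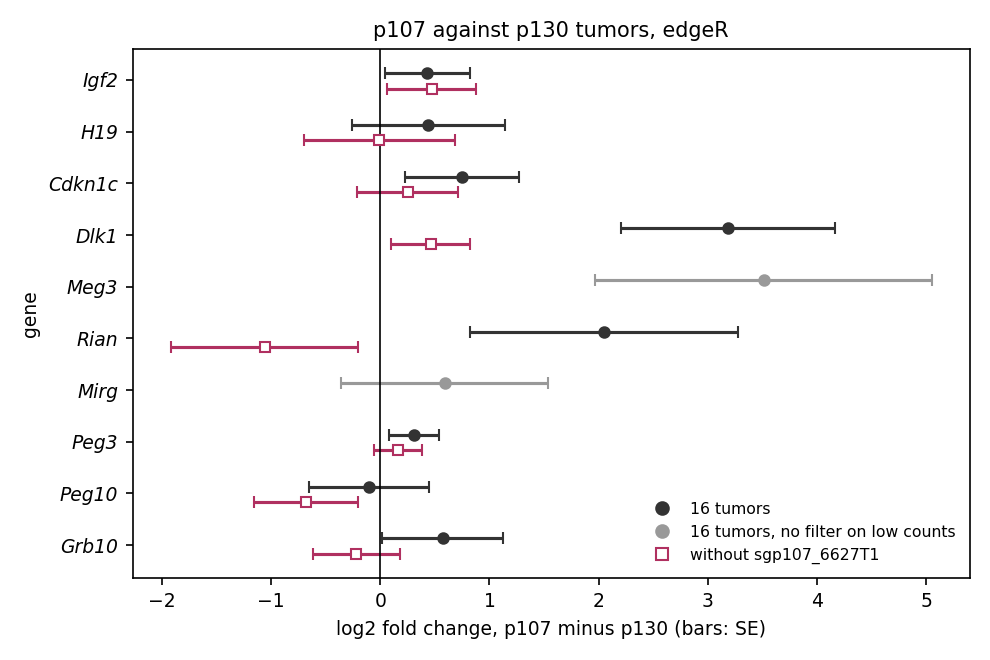
Log2 fold change, p107 minus p130 tumors, with its standard error from edgeR; filled points use 16 tumors (grey where the gene passed only without the filter on low counts) and open squares leave out sgp107_6627T1. No gene passed an adjusted p of 0.05 in either fit, and Dlk1 moves from 3.18 to 0.46 and Rian from 2.05 to -1.06.

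Differences between mice of one genotype did not reach the threshold in edgeR. The fit with a mean for each mouse tested 9 members and called 0, with 0.174% of 16127 genes called. At an unadjusted p under 0.05, 5 of 9 passed, against 20.1% of all genes: Rian (adjusted p = 0.0918), Meg3 (0.0954), Dlk1 (0.0977), Cdkn1c (0.181) and Peg10 (0.248). Without sgp107_6627T1, 1 of 9 passed unadjusted. DESeq2's likelihood ratio test called these 5 genes, with adjusted p between 4.56e-07 for Rian and 0.0291 for Peg10, where it called 16.1% of all genes. Tumors of one host could differ widely. Thus sgp107_6627T1 exceeded sgp107_6627T2 51.3-fold for Meg3, 31.5-fold for Dlk1, 18.4-fold for Rian and 4.03-fold for Grb10, but 1.48-fold for Cdkn1c and 1.32-fold for H19. In another mouse, sgp130_6697T1 exceeded sgp130_6697T2 36-fold for Meg3 and 31.9-fold for Rian.

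Pairs of genes from one region or from adjoining domains had a higher median correlation than other pairs. This difference came from the chromosome 12 cluster and was not tested. Of 45 pairs, 17 passed an adjusted permutation p of 0.05 by Pearson's r and 8 by Spearman's rho. Of the 9 such pairs, called region pairs here, 6 and 3 passed. These 9 count Cdkn1c with Igf2 and with H19, which lie in adjoining domains, and Cdkn1c with H19 is among the 6. So are Mirg with Meg3 and Mirg with Rian, which rest on few counts. The median r was 0.872 for the region pairs and 0.46 for the others, and without sgp107_6627T1 these medians were 0.53 and 0.05, with 1 region pair, Meg3 and Rian, past the threshold. The 0.872 is the r of Rian with Mirg. On distal chromosome 7, r was 0.231 for Igf2 with H19, -0.19 for Igf2 with Cdkn1c and 0.672 for H19 with Cdkn1c. A higher median is therefore not shown for that chromosome. The strongest pair across regions was Cdkn1c with Grb10, both growth restraining genes of the maternal copy. It had r = 0.847 (adjusted permutation p = 0.00135), rho = 0.876 (adjusted p = 0.00157) and r = 0.751 without the 2 tumors farthest from the median of Cdkn1c. Between deviations from the mouse means r was 0.814 (adjusted permutation p = 0.0521), and over the means of the 7 mice 0.914 (exact permutation test, adjusted p = 0.166). Cdkn1c also passed by both measures with Meg3 (r = 0.733, adjusted permutation p = 0.00793; rho = 0.674, adjusted p = 0.0379) and Rian (r = 0.766, adjusted p = 0.00793; rho = 0.709, adjusted p = 0.0314), and without the 2 tumors farthest from the median of Meg3 or Rian r was 0.717 and 0.753. Without sgp107_6627T1 alone these r were 0.575 and 0.616. Within mice these r were 0.392 and 0.48 (adjusted permutation p = 0.067 for both), and over mouse means 0.953 and 0.944 (exact permutation test, adjusted p = 0.129 for both). Of the 36 pairs across regions 11 passed over tumors, 0 over mouse means and 0 within mice. Without sgp107_6627T1, 2 of all 45 pairs passed over tumors by r, and 1 of these was the region pair of Meg3 and Rian.

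**Figure D5:**
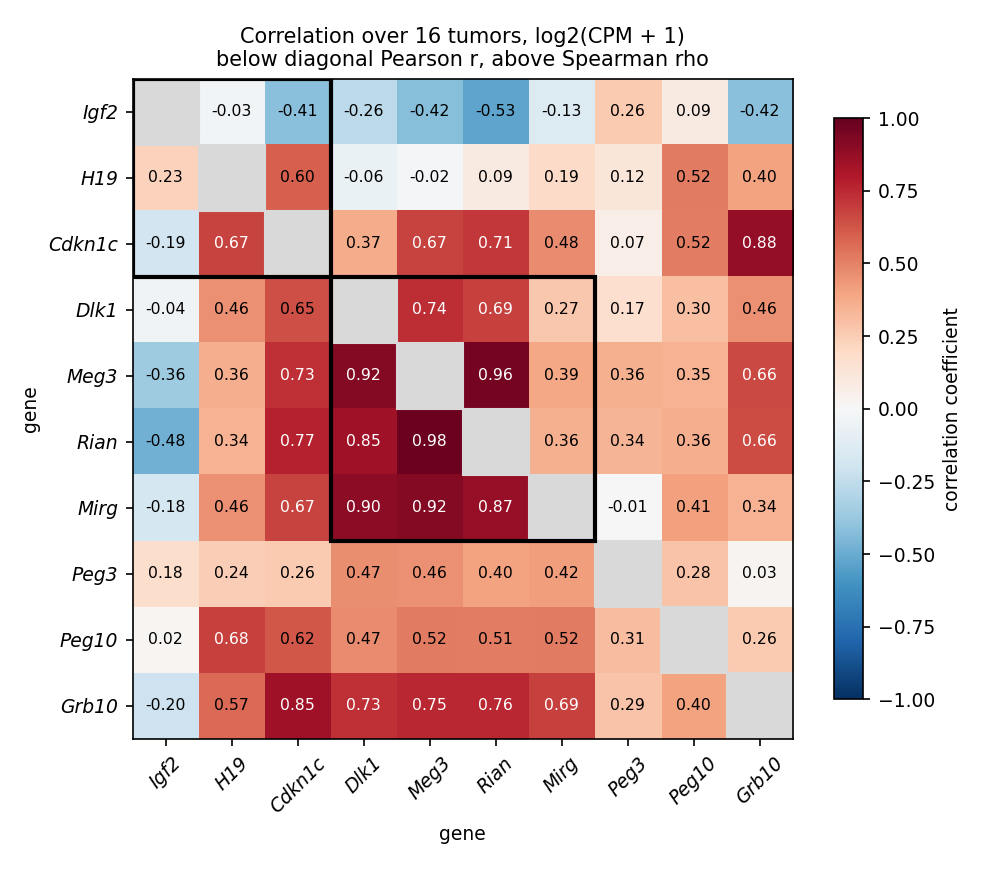
Correlation of log2(CPM + 1) over 16 tumors for each pair of the 10 genes, Pearson's r under the diagonal and Spearman's rho over it; black frames enclose the distal chromosome 7 genes and the chromosome 12 genes. In the chromosome 12 frame all Pearson values are at least 0.847, while the rank correlations of Mirg there are 0.267 to 0.385.

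Other genes with a pattern like that of a member were named by the highest r among the 11261 genes. A gene low in most tumors could reach the mean of 5 CPM through its highest tumors, so these ranks are a description only. Beside Igf2as, the genes most like Igf2 were Dlg3 (r = 0.866) and Slc46a3 (r = 0.855). Those most like Cdkn1c were Ypel1 (r = 0.935), Dchs1 (r = 0.932) and Hmgb3 (r = 0.925), and these stayed at 0.884 or above without sgp107_6627T1. Those most like Dlk1 were Pygm, Cdh11 and P2rx3, with r of 0.934 to 0.974, which fell to 0.132 to 0.615 without that tumor. Atat1, a tubulin acetyltransferase, was among the 3 most like both Meg3 (r = 0.941) and Rian (r = 0.951).

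In sgp130_6697T1, 0 of the 8 members tested had their highest level of the 16 tumors, against 7.18% of all genes tested. In the same tumor 1, Igf2, had its lowest, against 7.67%. In sgp107_6627T1, 7 of the 8 members tested had their highest level, against 15.3% of all genes tested, and 0 their lowest, against 17.1%. Genes of one cluster, such as Dlk1 and Rian, are not separate instances. With Meg3 and Mirg, which did not pass the filter, 9 of the 10 were highest in sgp107_6627T1. Of 33 other imprinted genes tested, 9 were highest there (27.3%) and 6 lowest (18.2%). The high ones included Nap1l5 at 99.5 CPM, against 25.9 CPM or less elsewhere, Snrpn at 198 CPM, against 74.9 CPM or less, and Inpp5f at 262 CPM, against 144 CPM or less. The low ones were Kcnq1, Cobl, Copg2, Blcap, Airn and Slc38a4, with Blcap at 14.4 CPM, against 42.3 CPM or more elsewhere. Of 16 genes of the insulin-like growth factor pathway 3 were highest there and 2 lowest (12.5%), Igfals at 0.0582 CPM and Pappa at 0.875 CPM. The high ones included Igf1, the ligand, at 91.1 CPM (28.4 CPM or less elsewhere) and Igfbp4, which binds it, at 283 CPM (43.3 CPM or less elsewhere). The tumor also had the lowest neuroendocrine score of all, 8.08 as the mean log2(CPM + 1) of 10 markers, against 8.17 to 8.72 in the others. Of these markers Calca (117 CPM) was at its lowest there and Ncam1 (481 CPM), Syp (504 CPM) and Chgb (771 CPM) at their highest. Its endothelial score over 8 markers was the highest, 4.57 against 3 to 4.2, and their summed level was 232 CPM, with p107 tumors at 121 to 232 CPM and p130 tumors at 70.1 to 137 CPM. Their part in the levels of the imprinted genes was not tested. The hepatocyte score was highest there too, through Ttr at 369 CPM, while Alb and Fgb were at 0. In bulk tumor RNA, fewer cells of a type and less RNA per cell cannot be told apart.

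Of 90 correlations between a member and a cell type or state score, 0 passed the adjusted threshold by a permutation test, with a smallest adjusted p of 0.212 by r and 0.0738 by rank, and 14 passed unadjusted by r. The largest was Igf2 with the mesothelium score, r = 0.705 (adjusted p = 0.212; rho = 0.671, adjusted p = 0.256), and r was 0.484 without the 2 tumors farthest from the median of that score. The lists of other imprinted genes, of the insulin-like growth factor pathway and of genes that keep imprints were also compared between genotypes. edgeR called 0 of 33, 0 of 16 and 0 of 14 genes tested in them, with 3 (9.09%), 3 (18.8%) and 2 (14.3%) at an unadjusted p under 0.05. Over all genes tested these shares were 0.0269% and 11.8%, and the lists' shares lie near them. Of the 33 other imprinted genes 18 were higher and 15 lower in p107 tumors, with a median log2 fold change of 0.07. Of the 16 pathway genes 12 were higher, with a median of 0.24, and of the 14 imprint-keeping genes 10 were higher, with a median of 0.07. Zfp57 itself, which protects imprints in the embryo, was at 3.96 CPM in sgp107_6627T1 and at 0.139 to 1.53 CPM in the other 15 tumors.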

How the data were processed

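RNA of 16 mouse small cell lung cancers was sequenced. Per the labels' protocols, tumors were taken from lungs and frozen, and a KAPA mRNA kit was used on the total RNA. The authors deposited a table of estimated (expected) counts per gene. The submitters' processing notes name RSEM 1.2.12, Bowtie 1.0.1 and build mm9. Neither gene annotation nor strand is given in the sources used here. The authors also deposited a normalized signal table of 21523 rows, whose values equal the estimated counts times one constant per tumor. It lacks Mirg and served only as an alternative.

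Estimated counts were rounded to whole numbers and tested with edgeR 4.0.16 in R 4.3.3 (TMM, filterByExpr, robust quasi-likelihood F test). P-values were adjusted by Benjamini-Hochberg over every gene of the fit, and 0.05 was the threshold. p107 minus p130 was fitted over tumors, and a second fit compared the mice within each genotype. Correlations used log2(CPM + 1) and permutation tests with 100000 resamples, adjusted over 45 pairs of members, 17 pairs with neighbours or 90 scores. Within mice all 1152 permutations were used instead, and over mouse means all 5040. These smaller numbers limit how low an adjusted p can be there. Alternatives used DESeq2 1.42.0, limma 3.58.1, other scaling, filters and pseudocounts, sums per mouse, and tumors or mice left out. On simulated counts with no mouse effect, edgeR recovered 42% of genes changed by log2 1 and 97% of those changed by log2 2 for p107 against p130, and called 4 unchanged genes among 14741 tested. Between mice it recovered 3% and 35%. These shares are over all genes changed in the simulation. By standard deviation over tumors, every member tested but Peg3 lay between percentile 90.0 (H19) and 99.2 (Rian). Recovery of genes that vary this much was not tested. Libraries of 12700334 to 34620979 counts limit genes of few counts such as Mirg, and the upper limits given for 0 counts cover counting error only. The SE and SD values include the variation between tumors.

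The named genes are the 10 members, neighbours in their regions and, per member, the 3 genes of highest r. Kcnq1ot1 and the genes given for sgp107_6627T1 (Nap1l5, Snrpn, Inpp5f, Igf1, Igfbp4, Zfp57, those lowest there and the markers) come from lists, and of these the genes of sgp107_6627T1 were chosen after their values were seen. The members and lists were chosen with earlier results of these data known. Transcript lengths come from GENCODE M21 and sequences from RefSeq, both of another build than the counts.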

Additional observations from a re-analysis of the deposited data

Results flagged for a closer look

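Among 20 sets of 8 tumors (10 genes in 2 genotypes), 10 values were farther from the rest of their set than Dixon's test allows at the 95% level. Chance gives about 1 in 20 sets where the sets are independent and their values normally distributed. Genes of the chromosome 12 cluster share their highest tumor, so these sets are not independent. Whether CPM values are normally distributed was not tested, so the excess over chance is not measured here. The flagged values are CPM, and all were the highest of their set.

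Of these values, 6 belonged to sgp107_6627T1 among the p107 tumors: Dlk1 at 47.0 CPM (next 1.49), Meg3 at 138.0 CPM (next 2.69), Rian at 133.0 CPM (next 7.25), Mirg at 0.64 CPM (next 0.121), Peg10 at 225.0 CPM (next 87.0) and Grb10 at 146.0 CPM (next 36.1). Among the p130 tumors, sgp130_6697T1 stood apart for Meg3 at 9.76 CPM (next 1.09) and Rian at 25.9 CPM (next 3.55). The other 2 were Peg10 in sgp130_6637T2 at 207.0 CPM (next 84.3) and Grb10 in sgp130_6638T4 at 71.9 CPM (next 36.2). The low Igf2 of sgp130_6697T1, 60.9 CPM, did not pass on the CPM scale.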

How the results depend on the processing

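No paired analysis was possible because T1 to T5 count the tumors within a mouse and pair nothing across genotypes, and each mouse carried one genotype.

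The number of genes called between genotypes, 4, became 212 with DESeq2, 0 with limma on the normalized table, 1 with counts summed per mouse, 0 with voom and the mouse as a random block, 0 with only the 10 tumors that held Y-linked transcripts (8 p107 and 2 p130), and 1 without sgp107_6627T1 and sgp130_6697T1 (an alternative chosen after seeing the data). Leaving out one tumor or mouse gave 0 to 10. None of these settings called a member. The number called between mice, 28, became 2591 with DESeq2, which also called 5 members, and 9 without sgp107_6627T1 (chosen after seeing the data), and lay between 6 and 124 when one mouse was left out. The 6 region pairs past the threshold became 3 by rank, 1 over mouse means, 0 within mice, 1 without the 2 farthest tumors and, without sgp107_6627T1 and sgp130_6697T1 (chosen after seeing the data), 4 by Pearson's r and 1 by rank, and lay between 1 and 7 when one tumor was left out, with the 1 reached without sgp107_6627T1.

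Log2 fold changes that turned sign were those of H19 (-0.18 without both tumors), Peg10 (0.11 with Y-linked tumors) and Grb10 (-0.22 with DESeq2, -0.21 without both tumors). With one tumor or mouse left out, they ran from -0.57 to 0.8 for H19, from -1.77 to 3.7 for Rian, from -0.92 to 0.46 for Peg10, from -0.3 to 1.01 for Cdkn1c and from -0.4 to 1.03 for Grb10. None passed the threshold in any setting. The causes were not tested. Genes near 0 counts, such as Mirg, are limited by depth.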
